A study of Homo sapiens with 9 samples.

Results

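Heat shock proteins and DNAJ cochaperones were described in cultured human MDA-MB-231 cells, an established line of triple-negative breast cancer, by sequencing 9 libraries of polyadenylated RNA. The groups, of 3 libraries each, were indisulam (3.3 µM, 12 h), pladienolide B (10 nM, 6 h) and DMSO, the vehicle, whose libraries are labelled 12 h. All cells were treated 1 day after seeding, per the labels. Pladienolide B differed from the other groups in both drug and time, and the effects of these cannot be told apart. Indisulam acts as a glue between the DCAF15 ubiquitin ligase and the splicing factor RBM39, which is then degraded, and pladienolide B binds the SF3b complex that recognises the branch site of introns. Separate cultures are not mentioned for the libraries of a group, which the labels number as replicas, so a p-value here speaks only of the spread among libraries, which may be technical. In RNA from a whole culture, fewer cells with a transcript and less of it per cell cannot be told apart.

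The genes were chosen by symbol: the HSPA, HSPB, HSPD, HSPE, HSPH and HSP90A names and the numbered DNAJA, DNAJB and DNAJC names, without HSPA5, DNAJB9, DNAJC3 and DNAJC30 and without symbols that end like those of pseudogenes. This gave 64 of the 46846 features in the deposited table. They comprised 12 genes named HSPA (HSP70), 2 named HSP90A, 1 named HSPH, 2 of the mitochondrial chaperonin, 8 named HSPB (small heat shock proteins), 4 DNAJA, 12 DNAJB and 23 DNAJC. The symbol ending also removed HSPBP1 and HSPBAP1, which are not pseudogenes, and kept HSPA7, whose annotation is that of a pseudogene. HSF1, the main activator of these genes, and HSPA14 were not analysed here.

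Chaperones bind unfolded or partly folded proteins and keep them from aggregating. HSP70 proteins do this in cycles driven by ATP: a DNAJ protein (also called HSP40) delivers the substrate and stimulates the ATPase through its J domain, an exchange factor then releases ADP, and HSP90 takes over some clients, many kinases and hormone receptors among them. DNAJA and DNAJB proteins are mostly general substrate carriers, whereas DNAJC proteins share little beyond the J domain and tie HSP70 to single tasks such as protein import, clathrin uncoating or ribosome assembly. Under heat or other proteotoxic stress HSF1 binds heat shock elements, inverted repeats of the letters GAA, in the promoters of the inducible members, and cancer cells often keep part of this program switched on.

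Values are read counts after the authors' size-factor scaling and are called normalised read counts here. The libraries held 59312100 to 83910831 reads. After normalisation the totals per library averaged 84689853 ± 2607968 with pladienolide B, 63349449 ± 409132 with indisulam and 61016460 ± 574381 in DMSO (SD, n = 3 each), so that the total was 1.39 times that of DMSO with pladienolide B and 1.04 times with indisulam. A count of 3 reads, the limit that a count of 0 allows, corresponded to 2.48 to 3.87 normalised reads, and this limit covers counting error only. All 8 mesenchymal markers searched had a mean of at least 10. So did 7 of the 10 luminal markers, among them KRT8, KRT18 and ERBB2 with means of 56682, 45062 and 5587. The luminal markers ESR1 and PGR were at or under 3 reads in DMSO, and leukocyte markers summed to between 182 and 467 in each library. In the deposited values luminal and mesenchymal markers were both mostly higher with pladienolide B. Of all features 34.3% were higher and 35.5% lower with that drug, and 14.5% and 12.4% with indisulam. The luminal list summed to between 149778 and 162436 with pladienolide B and between 107399 and 117261 in DMSO (5 of 7 tested higher and none lower, median log2 fold change 0.57; 3 higher and 3 lower with the same total per library). The mesenchymal list summed to between 586449 and 721521 with pladienolide B and between 414885 and 462117 in DMSO (7 of 8 higher and 1 lower, median 0.55; 3 higher and 2 lower with the same total). The leukocyte list summed to between 182 and 237 with indisulam and between 336 and 367 in DMSO (CSF1R, lower, was the 1 called of 5 tested). The part of these lists in the results for the chaperone genes was not tested.

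Of the 64 genes, 53 had a mean of at least 10 normalised reads over the 9 libraries and were tested; 16846 features in all passed this filter. HSPB2, HSPB7, DNAJB3 and DNAJB8 were at 0 in all 9 libraries. DNAJB7, DNAJB13, DNAJC12, HSPA7, HSPA12B, HSPB3 and HSPB9 had some reads and a mean under 10, the highest single value among them being 13.4 for DNAJB13 in a DMSO library. HSPB6 lay just inside the filter with a mean of 10.3. Its mean with indisulam was under 10, so it passed through its levels in the other groups.

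A few chaperones held most of the signal. Per kilobase of transcript, HSP90AB1, the constitutive cytosolic HSP90, was the highest in DMSO at 92265 ± 1026 normalised reads, followed by HSPA8, the constitutive cytosolic HSP70, at 79904 ± 3479 and HSP90AA1, the inducible HSP90, at 43912 ± 3309 (SD, n = 3). HSPD1 at 23059 ± 328, HSPB1 at 22956 ± 2149 and HSPE1 at 21342 ± 1104 per kilobase came next, with neither HSPD1 and HSPB1 nor HSPB1 and HSPE1 differing beyond their spread. HSPA9 followed at 10606 ± 272, DNAJB6 at 7026 ± 133, DNAJA1 at 5840 ± 343 and HSPA1B, a stress-inducible HSP70, at 4687 ± 212 per kilobase. Transcript lengths were those of the GENCODE transcript with the longest coding sequence, and another isoform would change these levels. HSPA6, the HSP70 gene that is nearly silent without stress, stood at 48.2 per kilobase in DMSO, and DNAJA4 was the lowest of the 53 at 7.97.

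HSP90AB1, HSPA8 and HSP90AA1 together made up 66.7 ± 0.350% of the summed signal of the 64 genes with indisulam, 69.5 ± 0.337% with pladienolide B and 66.5 ± 0.590% in DMSO (SD, n = 3). The sum over all 64 genes was 907437 ± 13743 normalised reads with indisulam and 1159058 ± 13121 with pladienolide B, against 852389 ± 24623 in DMSO. These are 1.06 and 1.36 times the DMSO sum. As a share of each library's total the genes took 1.43 ± 0.0282% with indisulam, 1.37 ± 0.0458% with pladienolide B and 1.40 ± 0.0467% in DMSO. The sum was thus highest in all 3 pladienolide B libraries, while the shares of these libraries, 1.36%, 1.33% and 1.42%, overlapped those of DMSO, 1.44%, 1.35% and 1.41%.

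**Figure D1:**
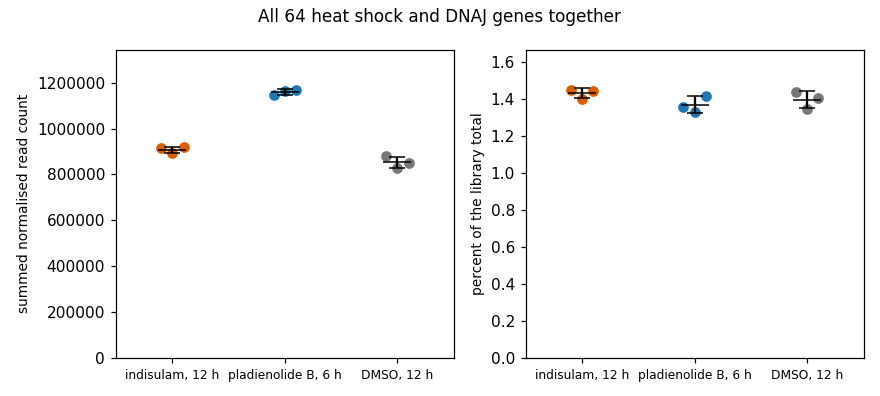
Summed normalised read count of the 64 genes (left) and the same sum as a percent of the library total (right), by group; points are libraries, bars the mean ± SD (n = 3). The pladienolide B libraries are highest on the left, at 1.36 times the DMSO mean, and overlap the DMSO libraries on the right.

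Promoters are shown for 6 members as examples of those with a heat shock element: both stress-inducible HSP70 genes, HSPA6, DNAJB1, HSP90AA1 and HSPD1. They were picked for holding a heat shock element pair, and the windows of HSPE1 and HSPH1, other classical targets of the heat shock response, hold none. The HSPE1 window, chr2:197500129-197500378 (plus), begins just beyond the HSPD1 window, so its 250 bases leave out the pairs of HSPD1. Each sequence is the 250 bases upstream of a transcript start, read 5′ to 3′ on the gene's strand, from RefSeq (GRCh38.p14). Capitals mark heat shock element pairs, GAANNTTC or TTCNNGAA; each of these reads the same on both strands, and neighbouring pairs can share letters. The windows lie at chr6:31815293-31815542 (plus strand) for HSPA1A, chr6:31827488-31827737 (plus) for HSPA1B, chr1:161524290-161524539 (plus) for HSPA6, chr19:14518398-14518647 (minus) for DNAJB1, chr14:102087045-102087294 (minus) for HSP90AA1 and chr2:197499841-197500090 (minus) for HSPD1.
HSPA1A: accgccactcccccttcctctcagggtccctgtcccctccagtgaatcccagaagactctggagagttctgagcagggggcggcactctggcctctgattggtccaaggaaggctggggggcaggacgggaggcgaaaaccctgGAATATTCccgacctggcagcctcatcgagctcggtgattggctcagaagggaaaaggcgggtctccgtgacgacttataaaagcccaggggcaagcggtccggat
HSPA1B: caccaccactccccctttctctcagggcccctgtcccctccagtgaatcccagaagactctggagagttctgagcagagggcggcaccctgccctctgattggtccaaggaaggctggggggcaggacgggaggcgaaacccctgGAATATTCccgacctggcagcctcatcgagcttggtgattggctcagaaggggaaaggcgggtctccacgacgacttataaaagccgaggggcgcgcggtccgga
HSPA6: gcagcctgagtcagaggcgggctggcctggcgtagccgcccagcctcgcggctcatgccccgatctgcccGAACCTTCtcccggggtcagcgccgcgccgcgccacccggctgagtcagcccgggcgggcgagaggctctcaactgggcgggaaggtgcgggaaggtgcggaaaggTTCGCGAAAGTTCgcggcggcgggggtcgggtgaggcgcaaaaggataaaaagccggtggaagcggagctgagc
DNAJB1: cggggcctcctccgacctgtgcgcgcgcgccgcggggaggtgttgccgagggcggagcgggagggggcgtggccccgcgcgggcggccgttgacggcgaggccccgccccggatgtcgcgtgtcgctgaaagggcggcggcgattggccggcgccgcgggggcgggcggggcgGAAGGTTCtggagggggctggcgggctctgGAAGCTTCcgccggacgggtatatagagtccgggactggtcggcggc
HSP90AA1: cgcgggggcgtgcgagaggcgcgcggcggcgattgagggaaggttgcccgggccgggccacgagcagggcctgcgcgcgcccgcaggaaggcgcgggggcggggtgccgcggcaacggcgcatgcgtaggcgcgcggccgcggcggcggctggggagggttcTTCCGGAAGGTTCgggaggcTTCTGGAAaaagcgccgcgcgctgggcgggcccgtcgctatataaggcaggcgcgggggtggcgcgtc
HSPD1: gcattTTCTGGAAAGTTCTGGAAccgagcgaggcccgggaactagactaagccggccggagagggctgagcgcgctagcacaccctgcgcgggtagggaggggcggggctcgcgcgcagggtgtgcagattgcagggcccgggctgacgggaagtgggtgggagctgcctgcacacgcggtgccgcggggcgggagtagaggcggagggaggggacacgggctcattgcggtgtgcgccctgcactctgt

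HSPA1A and HSPA1B carry the same pair, beginning 106 and 105 bases upstream of the start, and both windows hold the TATA letters TATAAA. DNAJB1 has 2 separate pairs, beginning 77 and 47 bases upstream. In HSP90AA1 and HSPA6 a run of 3 alternating repeats (TTC, GAA and TTC, or the reverse complement, each spaced by any 2 bases) begins 88 and 74 bases upstream, and each window holds a further pair. HSPD1 has 3 overlapping pairs that begin 245, 240 and 235 bases upstream. Other RefSeq starts of DNAJB1, HSP90AA1 and HSPD1 have no pair in their windows.

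Of the 53 genes tested, 49 matched a RefSeq promoter, and 17 of these 49 (34.7%) held an element pair in at least 1 promoter, against 14.0% of all 27305 genes in the promoter table (11.6% of its 35116 promoters). The run of 3 repeats was in 6 of 49 (12.2%), namely DNAJB6, HSPA6, HSPA8, HSP90AA1, HSP90AB1 and HSPD1, against 0.557% of all genes and 0.441% of all promoters. TATAAA was in 16.3% of the 49 genes, 13.0% of all genes and 10.7% of all promoters. These are matches of letters in a window and say nothing of a factor's binding.

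With indisulam, changes in chaperone transcripts were small and mixed. The stress-inducible HSP70 pair HSPA1A and HSPA1B, the cochaperones DNAJB1, DNAJB4 and DNAJB6, and several specialised DNAJC genes rose, by 0.19 to 0.76 on the log2 scale. The mitochondrial HSP70 HSPA9, HSPA4L, the oxidoreductase DNAJC10 and DNAJC21 fell. HSP90AA1, HSP90AB1, HSPA8, HSPD1, HSPE1 and HSPB1, the 6 members with the highest levels per kilobase, did not pass the test in either direction. For both HSP90 genes the indisulam values lay above those of DMSO without overlap, and 48.4% of all features had no overlap. With the replicate number as a block, a pairing that the labels do not state, HSP90AA1 was called higher (limma adjusted p = 0.00275).

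In the comparison with DMSO, 13 of the 53 genes were higher and 5 lower at a limma adjusted p under 0.05, and 35 were not called. The lower count was 4 without HSPB6, which is low in the indisulam libraries and entered the test through its levels in the other groups. With 1 library left out the higher count was 7 without indisulam replicate 1 and 8 without DMSO replicate 2 or 3, and the lower count was 3 without DMSO replicate 1. Among all 16846 features tested, 14.5% were higher and 12.4% lower. No overlap between the indisulam and DMSO libraries was found in 29 of the 53, and in 48.4% of all features. At least 2-fold changes were called for no higher member (2.17% of all features) and 1 lower member (1.47%), HSPB6. The median log2 fold change was 0.07 over the 53 genes and 0.05 over all features. Of 19 HSP genes 3 were higher and 3 lower, and of 34 DNAJ genes 10 were higher and 2 lower. The p-values throughout are adjusted over all features by the Benjamini-Hochberg method, fold changes are differences of log2(value + 1), and ± beside a log2 value is the SE.

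HSPA1B (GSHG0038670, hg38 chromosome 6, 31827737 to 31830255), a stress-inducible cytosolic HSP70 without introns, had 21329, 16364 and 15658 normalised reads in the indisulam libraries, against 12415, 11645 and 11386 in the DMSO libraries. All 3 indisulam values were higher than any DMSO value, replicate 1 the most, and the difference was 0.58 ± 0.11 on the log2 scale (limma adjusted p = 0.00238). HSPA1A (GSHG0038671, chromosome 6, 31815268 to 31817965), its neighbour 9771 bases away, had 3785, 2573 and 2442 with indisulam and 2056, 1746 and 1693 in DMSO. Again the groups did not overlap and indisulam replicate 1 stood highest (0.66 ± 0.17, limma adjusted p = 0.0129). Without that library the value for HSPA1A was no longer called (limma adjusted p = 0.0623), nor without DMSO replicate 2 (0.0561) or 3 (0.0522). These genes are near-identical in their coding sequence, so the way the authors' counting split reads between them is uncertain. Their sum was 20717 ± 3831 with indisulam and 13647 ± 730 in DMSO (SD, n = 3), a ratio of 1.52.

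DNAJB1, the classical inducible HSP40 partner of HSP70 (chromosome 19, 14514769 to 14529271), had 10686, 10110 and 10720 normalised reads with indisulam and 8432, 8354 and 7922 in DMSO. The groups were well apart, with a log2 difference of 0.35 ± 0.06 (limma adjusted p = 0.000999). DNAJB6, which suppresses the aggregation of polyglutamine proteins, had 8217, 8068 and 8419 with indisulam against 7182, 6918 and 7084 in DMSO, a rise of 0.22 ± 0.05 (limma adjusted p = 0.00604). DNAJB4, a heat-inducible relative of DNAJB1, averaged 1047 ± 44.4 with indisulam and 794 ± 44.6 in DMSO (SD, n = 3; 0.40 ± 0.12, limma adjusted p = 0.0255), a call that was lost when any of the 6 libraries compared was left out, except DMSO replicate 3. HSPA6, the most tightly stress-bound HSP70 gene, had 126, 165 and 187 with indisulam and 86.3, 114 and 143 in DMSO. Those values overlapped, and the difference of 0.49 ± 0.22 did not pass (limma adjusted p = 0.114). With the replicate number as a block, a pairing that the labels do not state, HSPA6 was called higher (limma adjusted p = 0.0166).

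DNAJC2, a ribosome-associated J protein that acts on nascent chains (chromosome 7, 103312289 to 103344835), had 831, 830 and 914 normalised reads with indisulam and 499, 462 and 559 in DMSO. The lowest indisulam library was above the highest DMSO library, and the rise of 0.76 ± 0.18 (limma adjusted p = 0.0077) was the largest of the 53 genes with this drug, level with that of DNAJC27. DNAJC2 shares 17223 bases of its span with PMPCB, a feature with a higher mean (5932 against 561), and with the strand setting of the counting not given, their reads cannot be told apart. DNAJC27, a Rab-like GTPase with a J domain, had 174, 157 and 144 with indisulam against 87.1, 116 and 79.5 in DMSO (0.76 ± 0.20, limma adjusted p = 0.0118), lost without DMSO replicate 3 or indisulam replicate 1. DNAJC24, which takes part in making diphthamide on elongation factor EEF2, had 1268, 1502 and 1335 with indisulam against 1046, 1089 and 1024 in DMSO. Its groups did not overlap (0.37 ± 0.09, limma adjusted p = 0.00772).

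Smaller rises were called for DNAJC7, a cochaperone with tetratricopeptide repeats that binds both HSP70 and HSP90 (0.36 ± 0.06, limma adjusted p = 0.00112), and for DNAJC25 (0.30 ± 0.08, 0.0118). HSPA4, an HSP110-type exchange factor, rose by 0.20 on the log2 scale, DNAJC15, a mitochondrial import factor, by 0.19 and DNAJA2, a cytosolic carrier for HSPA8, by 0.18, with limma adjusted p of 0.0306, 0.0404 and 0.0477. The calls of DNAJC15 and DNAJA2 were lost when any 1 of the 6 libraries compared was left out, and that of HSPA4 for any except DMSO replicate 3. DNAJC25 was not called without DMSO replicate 3 (limma adjusted p = 0.0528).

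HSPA9, the mitochondrial HSP70 that drives protein import and iron-sulfur cluster assembly (chromosome 5, 138553756 to 138575417), had 20098, 23385 and 23426 normalised reads with indisulam, against 29386, 29663 and 30834 in DMSO. Every indisulam value was lower than every DMSO value, and the fall of 0.43 ± 0.07 (limma adjusted p = 0.000403) was the best supported of the 5. DNAJC10, a disulfide reductase of the endoplasmic reticulum that works with HSPA5, had 3910, 4410 and 4339 with indisulam against 5218, 5295 and 5176 in DMSO, again without overlap. Its log2 difference was -0.31 ± 0.07 (limma adjusted p = 0.00442). HSPA4L, a relative of HSPA4, averaged 2540 ± 86.8 with indisulam and 3341 ± 187 in DMSO (-0.39 ± 0.11, limma adjusted p = 0.0137), not called without DMSO replicate 1 or indisulam replicate 2. DNAJC21, needed for 60S ribosome maturation, averaged 1661 ± 85.8 and 2114 ± 70.7 in the same order (SD, n = 3; -0.35 ± 0.09, limma adjusted p = 0.0104).

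HSPB6, a small heat shock protein best known from muscle, had 3.66, 4.06 and 2.09 normalised reads with indisulam and 13.4, 13.2 and 10.2 in DMSO (-1.66 ± 0.52, limma adjusted p = 0.0316). The indisulam values lie near that of 3 reads, so this fold rests on a handful of reads and is given as a description. It did not pass with a pseudocount of 10 (limma adjusted p = 0.0504), was not tested with a mean of at least 50, and the call was lost when any of the 6 libraries compared was left out, except indisulam replicate 2. HSPH1, the HSP110 exchange factor, had 20509, 17918 and 19835 with indisulam and 17748, 14325 and 16864 in DMSO. The indisulam values were all above those of DMSO, yet the difference of 0.26 ± 0.11 did not pass (limma adjusted p = 0.112). With the replicate number as a block, a pairing that the labels do not state, HSPH1 was called higher (limma adjusted p = 0.00223).

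**Figure D2:**
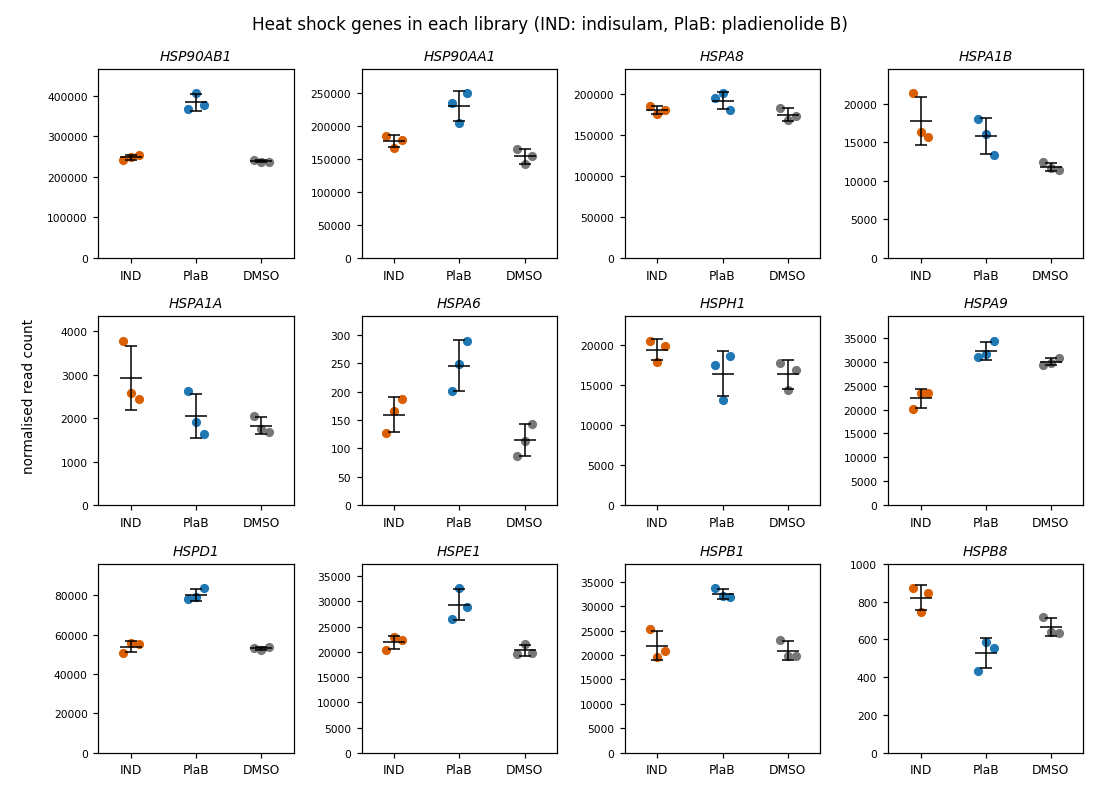
Normalised read count (y axis, from 0) of 12 heat shock genes in each library, by group; points are libraries and bars the mean ± SD (n = 3). HSPA1A, HSPA1B and HSPA9 separate indisulam from DMSO with a call, and HSP90AB1, HSP90AA1 and HSPH1 are among those that do so without a call. HSP90AB1, HSP90AA1, HSPD1, HSPE1, HSPB1 and HSPA6 are highest with pladienolide B.

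In the deposited values more HSP genes were higher than lower with pladienolide B, 10 against 2. This turned to 4 against 8 with the same total per library, where the median over all features was -0.48. More DNAJ genes were lower than higher under both scalings, in the deposited values at shares near those of all features. Both HSP90 genes, both chaperonin genes, HSPB1, HSPA6 and HSPA13 were higher in the deposited values, by 0.53 to 1.11 on the log2 scale, as were DNAJC25, DNAJC15 and DNAJC10. Of the DNAJ genes 14 were lower and 11 higher (41.2% and 32.4%, against 35.5% and 34.3% of all features). The lower ones included DNAJC6, DNAJC16, DNAJC28, DNAJB2, DNAJB5 and DNAJA3, each at 0.250 to 0.360 of its DMSO mean. With the same total per library 6 of the 21 calls as higher were kept. All 16 calls as lower were kept too. That scaling lowers every pladienolide B value against DMSO, so it could hardly have ended them and is no test of them.

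In the comparison with DMSO, 21 of the 53 genes were higher, 16 lower and 16 not called (limma adjusted p under 0.05). Among all features 34.3% were higher and 35.5% lower. The groups did not overlap in 39 of the 53 genes and in 71.8% of all features. Changes of at least 2-fold were called for 2 higher and 9 lower members, against 9.62% and 17.9% of all features. Of 19 HSP genes 10 were higher and 2 lower, and of 34 DNAJ genes 11 were higher and 14 lower. The median log2 fold change was 0.27 over the HSP genes, 0.06 over the DNAJ genes, 0.13 over all 53 and -0.01 over all features.

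The pladienolide B libraries had the larger normalised totals. Scaled to the same total per library, 6 of the 53 genes were higher and 31 lower, so that the share of higher among called genes was 16.2% in place of 56.8%. That scaling moved the median of all features by -0.47 on the log2 scale, and TMM scaling by -0.08. With the same total, 12.0% of all features were called higher with pladienolide B and not called with indisulam. Another 3.58% were higher with both, and 0.653% higher with pladienolide B and lower with indisulam. Calls as lower with pladienolide B made up 38.4% without an indisulam call, 11.2% lower with both and 4.40% higher with indisulam. The turn toward lower was thus common to features at large. HSP90AB1, HSPD1, HSPA6, HSPA13, DNAJC15 and DNAJC25 kept their call as higher with the same total. All 16 lower genes kept theirs, but a scaling that lowers every pladienolide B value against DMSO could hardly end such calls. Of the remaining 15 higher genes, 7 kept a positive sign without a call, 4 had a negative value without a call (DNAJB1, DNAJB11, DNAJC9, HSPA1B) and 4 were called lower (DNAJA1, DNAJA2, DNAJC1, HSPA4).

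HSP90AB1 (GSHG0036812, chromosome 6, 44246194 to 44253883) had 366549, 406211 and 378258 normalised reads with pladienolide B and 241273, 236977 and 236438 in DMSO. The groups were far apart, at 0.69 ± 0.05 on the log2 scale (limma adjusted p = 6.19e-08), and 0.21 with the same total per library. HSP90AA1 (GSHG0034042, chromosome 14, 102080736 to 102139749) had 234756, 205090 and 249795 with pladienolide B and 165713, 142482 and 154194 in DMSO. It too did not overlap (0.57 ± 0.08, limma adjusted p = 1.36e-05), but with the same total its value of 0.10 was not called (limma adjusted p = 0.296). HSPA8 had 194297, 200491 and 179817 with pladienolide B and 183035, 168172 and 172801 in DMSO. These overlapped, and the difference of 0.13 ± 0.06 narrowly missed the threshold (limma adjusted p = 0.0507), while the same total turned it to -0.34. HSPA8 was called higher with the replicate number as a block (limma adjusted p = 0.0137), a pairing that the labels do not state.

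Among the inducible HSP70 genes, HSPA6 (chromosome 1, 161524246 to 161526900) had 201, 248 and 289 normalised reads with pladienolide B and 86.3, 114 and 143 in DMSO. Each pladienolide B value was above each DMSO value (1.11 ± 0.22, limma adjusted p = 0.000404), and 0.64 remained with the same total. HSPA1B had 17972, 16014 and 13298 with pladienolide B against 12415, 11645 and 11386 in DMSO (0.41 ± 0.11, limma adjusted p = 0.00609), and -0.07 with the same total. HSPA1A had 2627, 1910 and 1641 with pladienolide B against 2056, 1746 and 1693 in DMSO, which overlapped and did not pass (0.15 ± 0.17, limma adjusted p = 0.468). The 2 genes summed to 17821 ± 2831 with pladienolide B and 13647 ± 730 in DMSO (SD, n = 3), a ratio of 1.31. HSPA13, an HSP70-like ATPase of microsomes, averaged 2462 ± 162 with pladienolide B and 1511 ± 144 in DMSO (0.71 ± 0.08, limma adjusted p = 4.69e-06).

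The remaining HSP70 genes were split between higher, lower and not called. HSPA9 had 30899, 31522 and 34337 normalised reads with pladienolide B and 29386, 29663 and 30834 in DMSO, which did not overlap but did not pass (0.11 ± 0.07, limma adjusted p = 0.17). It was called higher with the replicate number as a block (limma adjusted p = 0.0458), a pairing that the labels do not state. The exchange factor HSPA4 averaged 15828 ± 1217 with pladienolide B and 13086 ± 681 in DMSO (0.27 ± 0.06, limma adjusted p = 0.00162), with -0.20 at the same total. HSPH1 had 17528, 13192 and 18579 against 17748, 14325 and 16864 in DMSO, a difference of 0.00 ± 0.11 (limma adjusted p = 0.995). HSPA12A, a diverged HSP70 relative, was the 1 HSPA gene called lower (-0.70 ± 0.22, limma adjusted p = 0.0117), with -0.44 without pladienolide B replicate 1 (0.0497). It overlaps an unnamed feature with a higher mean (241 against 121).

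HSPD1 and HSPE1 encode HSP60 and HSP10, the ring and the lid of the mitochondrial chaperonin, and lie head to head on chromosome 2, with 48 bases between their features. HSPD1 (197486584 to 197500274) had 78089, 79005 and 83558 normalised reads with pladienolide B and 53228, 52173 and 53634 in DMSO. Its neighbour HSPE1 (197500323 to 197503449) had 26532, 32591 and 28969 with pladienolide B and 19599, 21484 and 19742 in DMSO. Neither gene's groups overlapped, with log2 differences of 0.60 ± 0.05 for HSPD1 and 0.53 ± 0.07 for HSPE1 (limma adjusted p = 2.25e-07 and 2.06e-05). With the same total HSPD1 was at 0.12 and still called (limma adjusted p = 0.0443), and HSPE1 at 0.06 and not called.

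Of the small heat shock proteins, HSPB1 (HSP27; chromosome 7, 76302606 to 76304296) had 33634, 32026 and 31801 normalised reads with pladienolide B and 23123, 19754 and 19724 in DMSO. The groups did not overlap (0.64 ± 0.09, limma adjusted p = 1.6e-05; 0.17 and not called with the same total). HSPB8, which acts with BAG3 in the autophagy of misfolded clients, was lower: 435, 588 and 557 with pladienolide B against 719, 640 and 634 in DMSO (-0.34 ± 0.12, limma adjusted p = 0.0209). It was no longer called without DMSO replicate 1 or pladienolide B replicate 1. HSPB11, an intraflagellar transport protein more than a chaperone, rose by 0.55 ± 0.07 (limma adjusted p = 1.44e-05), and HSPB6 was not called (0.27 ± 0.52, limma adjusted p = 0.666).

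The general DNAJ carriers were split. DNAJA1, the main farnesylated partner of HSPA8, had 17744, 16181 and 16581 normalised reads with pladienolide B and 14749, 13117 and 13852 in DMSO (0.28 ± 0.06, limma adjusted p = 0.000664; -0.20 with the same total). DNAJA3 (chromosome 16, 4425852 to 4456775), the partner of HSPA9 inside mitochondria, had 1136, 1162 and 1130 with pladienolide B and 3154, 3202 and 3161 in DMSO. Its pladienolide B libraries were all near 0.360 of the DMSO mean (-1.47 ± 0.06, limma adjusted p = 1.88e-10), the lowest adjusted p of the 53. DNAJB1 had 10589, 11560 and 10012 with pladienolide B against 8432, 8354 and 7922 in DMSO, with no overlap (0.38 ± 0.06, limma adjusted p = 8.3e-05; -0.09 with the same total). DNAJB6 averaged 10501 ± 298 with pladienolide B and 7061 ± 133 in DMSO (0.57 ± 0.05, limma adjusted p = 2.48e-07; 0.10 and not called with the same total).

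Other DNAJB genes were lower. DNAJB2, a neuron-enriched J protein with ubiquitin-interacting motifs, had 352, 426 and 341 normalised reads with pladienolide B and 1106, 1117 and 999 in DMSO (-1.53 ± 0.10, limma adjusted p = 1.9e-08). DNAJB5, a relative of DNAJB1, had 191, 166 and 159 with pladienolide B and 462, 500 and 483 in DMSO (-1.49 ± 0.12, limma adjusted p = 6.96e-08). DNAJB14, a J protein of the endoplasmic reticulum membrane, had 257, 188 and 309 with pladienolide B and 593, 595 and 554 in DMSO (-1.23 ± 0.15, limma adjusted p = 6.17e-06). In all 3 genes the highest pladienolide B library was below the lowest DMSO library. DNAJB12, the membrane partner of DNAJB14, fell by 0.61 on the log2 scale, whereas DNAJB11, a soluble cochaperone of HSPA5 in the same compartment, rose by 0.39 (limma adjusted p = 4.87e-06 and 0.000933).

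Of 22 DNAJC genes tested, 6 were higher and 9 lower (27.3% and 40.9%, against 34.3% and 35.5% of all features). DNAJC6 (auxilin, which recruits HSPA8 to uncoat clathrin vesicles; chromosome 1, 65254462 to 65415871) fell furthest, with 413, 244 and 293 normalised reads with pladienolide B against 1399, 1258 and 1149 in DMSO (-2.03 ± 0.16, limma adjusted p = 7.63e-08). DNAJC16 had 153, 146 and 138 with pladienolide B and 538, 544 and 528 in DMSO, both groups being tight (-1.88 ± 0.11, limma adjusted p = 2.89e-09). It shares 16850 bases with AGMAT, whose mean was slightly higher (441 against 413). DNAJC28 was low throughout, with 8.03, 18.1 and 7.61 with pladienolide B and 38.5, 47.0 and 36.7 in DMSO (-1.86 ± 0.37, limma adjusted p = 0.000478).

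DNAJC17 had 187, 161 and 232 normalised reads with pladienolide B and 424, 414 and 419 in DMSO (-1.13 ± 0.14, limma adjusted p = 5.75e-06), and overlaps ZFYVE19, whose mean was higher (692 against 315). DNAJC18 had 133, 120 and 97.7 with pladienolide B against 246, 257 and 225 in DMSO (-1.06 ± 0.15, limma adjusted p = 3.22e-05). In both the groups were separate. DNAJC5, the cysteine string protein of secretory vesicles and the DNAJC gene with the highest mean, had 8309, 10787 and 9514 with pladienolide B and 14520, 16477 and 16008 in DMSO. All its pladienolide B values were lower (-0.72 ± 0.08, limma adjusted p = 3.3e-06).

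DNAJC25 (chromosome 9, 111631334 to 111654347) was the member that rose most, with 1459, 1473 and 1560 normalised reads with pladienolide B and 660, 653 and 617 in DMSO. The groups were far apart (1.22 ± 0.08, limma adjusted p = 1.05e-08; 0.75 with the same total). DNAJC15, of the mitochondrial inner membrane, averaged 4643 ± 239 with pladienolide B and 2684 ± 72.7 in DMSO (0.79 ± 0.06, limma adjusted p = 8.16e-08; 0.32 with the same total). DNAJC10 had 8385, 7314 and 8282 against 5218, 5295 and 5176 in DMSO (0.61 ± 0.07, limma adjusted p = 2.32e-06), at 0.14 and not called with the same total. DNAJC4, DNAJC9, a histone chaperone, and DNAJC1, of the endoplasmic reticulum membrane, rose by 0.64, 0.42 and 0.20 on the log2 scale, and with the same total had 0.17, -0.05 and -0.27. The call of DNAJC1 was lost without DMSO replicate 2 or 3 or pladienolide B replicate 2.

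**Figure D3:**
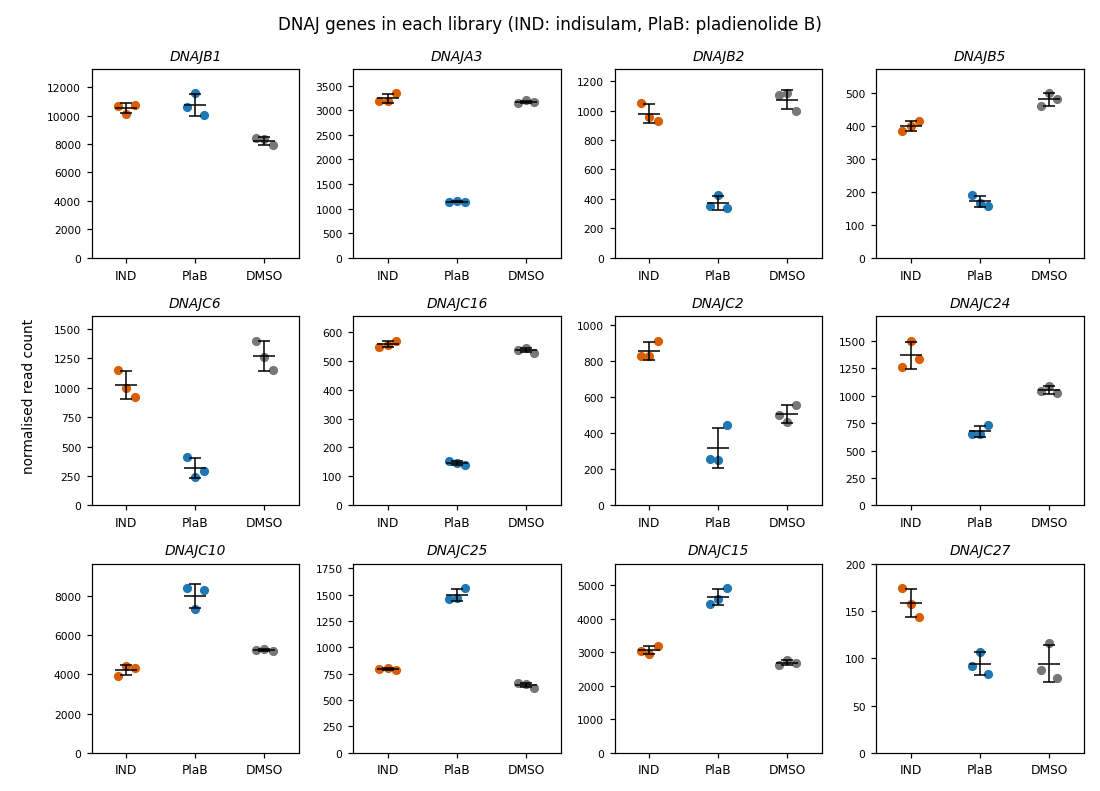
Normalised read count (y axis, from 0) of 12 DNAJ genes in each library, by group; points are libraries and bars the mean ± SD (n = 3). DNAJA3, DNAJB2, DNAJB5, DNAJC6 and DNAJC16 lie far below DMSO with pladienolide B and close to DMSO with indisulam, while DNAJC2 and DNAJC24 lie above DMSO with indisulam and below it with pladienolide B.

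The comparison of the drugs with each other placed 19 of the 53 genes higher and 18 lower with pladienolide B (limma adjusted p under 0.05), against 34.7% and 35.6% of all features. Changes of at least 2-fold numbered 1 higher, HSPB6, and 9 lower, against 8.32% and 18.4% of all features. HSPB6 rests on few reads and passed the filter through its levels outside the indisulam group, so its value is a description. With the same total per library the counts of called genes were 6 and 31, and the median log2 fold change over all features was -0.40. The largest differences were in genes called lower with pladienolide B and not with indisulam against DMSO, DNAJC28 (-2.25 ± 0.37, limma adjusted p = 9.36e-05), DNAJC16 (-1.93 ± 0.11, 2.37e-09) and DNAJC6 (-1.72 ± 0.16, 4.09e-07), apart from HSPB6 (1.92 ± 0.52, 0.00467). Other genes were called in opposite directions against DMSO. Of all features 4.08% were higher with indisulam and lower with pladienolide B, and 2.87% the reverse. DNAJC2 had 255, 251 and 449 normalised reads with pladienolide B and 831, 830 and 914 with indisulam, DMSO lying between at 499, 462 and 559. No pladienolide B library reached the lowest indisulam library, and the difference between the drugs was -1.48 ± 0.18 (limma adjusted p = 6.06e-06). Against DMSO, DNAJC2 was lower with pladienolide B by 0.72 ± 0.18 (limma adjusted p = 0.00301). DNAJC24 had 649, 647 and 729 with pladienolide B against 1268, 1502 and 1335 with indisulam (-1.02 ± 0.09, limma adjusted p = 2.33e-07), and again DMSO lay between, at 1046, 1089 and 1024. Its fall with pladienolide B against DMSO was 0.64 ± 0.09 (limma adjusted p = 2.08e-05).

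DNAJC10 was the reverse, higher with pladienolide B and lower with indisulam than in DMSO, and the drugs differed by 0.92 ± 0.07 (limma adjusted p = 4.12e-08). HSPA9 was higher with pladienolide B than with indisulam by 0.53 ± 0.07 (limma adjusted p = 5.99e-06), a value that was not called with the same total. HSPA1A was lower with pladienolide B than with indisulam (-0.51 ± 0.17, limma adjusted p = 0.0172), though the values overlapped and leaving out indisulam replicate 1 or pladienolide B replicate 2 or 3 ended the call. HSPA1B and DNAJB1 did not pass between the drugs (-0.17 ± 0.11 and 0.03 ± 0.06, limma adjusted p = 0.197 and 0.707). DNAJC7 was lower with pladienolide B than with indisulam by 0.28 ± 0.06 and HSPB8 by 0.65 ± 0.12 (limma adjusted p = 0.00144 and 0.000273).

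The comparisons of the drugs with DMSO share the DMSO libraries, so their calls are set side by side and not tested together. Called higher with both drugs were 7 genes, DNAJA2, DNAJB1, DNAJB6, DNAJC15, DNAJC25, HSPA1B and HSPA4, and called lower with both was DNAJC21, against 7.46% and 5.81% of all features. The 1 gene called higher with both at the same total per library was DNAJC25, against 3.58% of all features. With pladienolide B DNAJC15 kept its call and DNAJB6 was not called. DNAJB1 and HSPA1B had negative values without a call, and DNAJA2 and HSPA4 were called lower with that drug. With indisulam DNAJA2, DNAJC15 and HSPA4 were not called under that scaling. With pladienolide B the calls of DNAJA2 (0.18 ± 0.06, limma adjusted p = 0.0216) and DNAJC21 (-0.25 ± 0.09, 0.0229) were lost without DMSO replicate 1 or pladienolide B replicate 2, and also without DMSO replicate 2 for DNAJA2 and 3 for DNAJC21. DNAJC2 and DNAJC24 were higher with indisulam and lower with pladienolide B, and DNAJC10 was lower with indisulam and higher with pladienolide B. Called with pladienolide B and not with indisulam were 13 higher and 13 lower genes (24.0% and 25.6% of all features), and 9 genes (23.6%) were called with neither drug, HSPA8, HSPH1, HSPA2 and DNAJC11 among them.

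**Figure D4:**
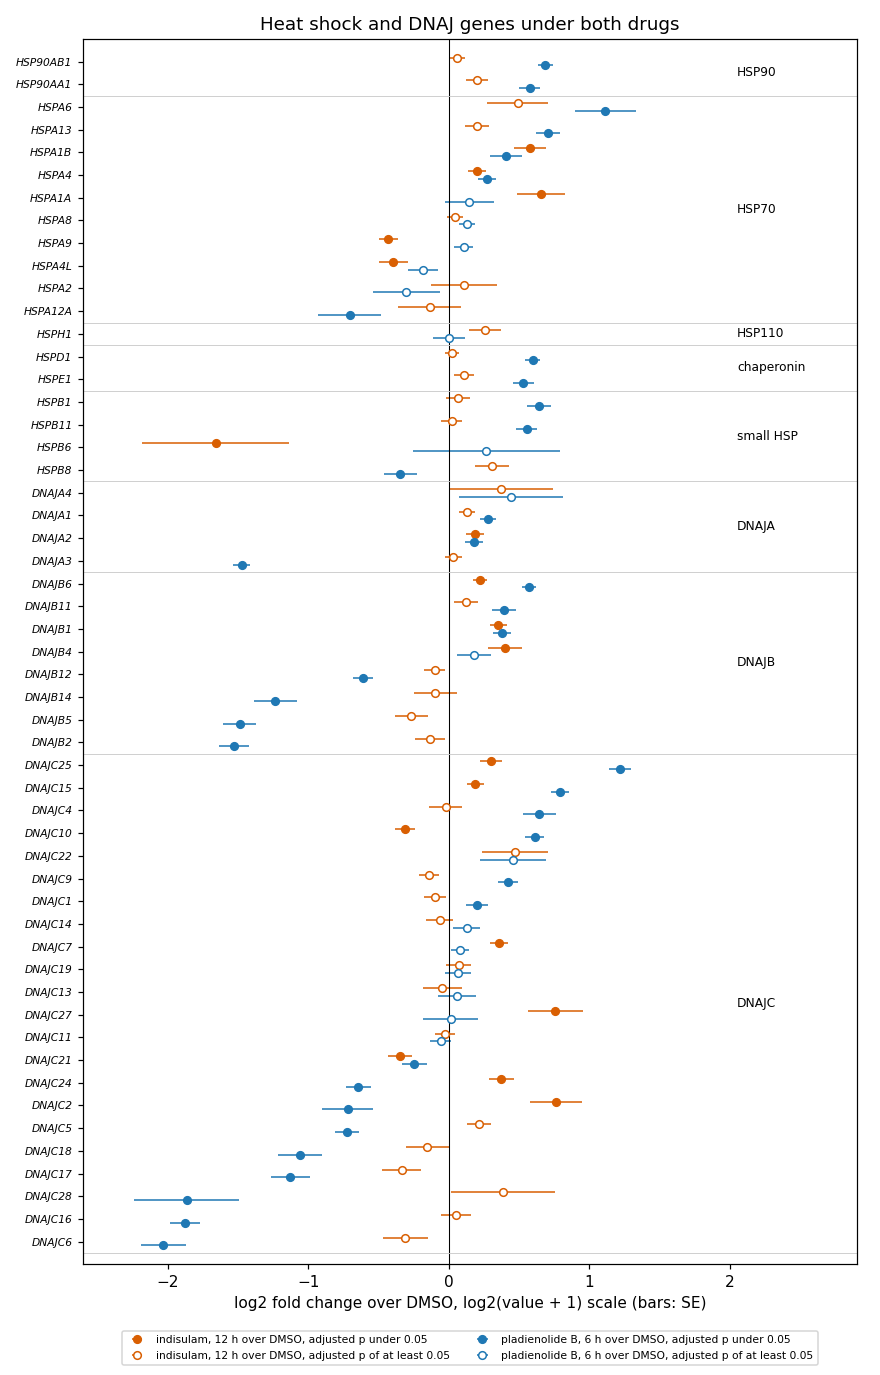
Log2 fold change over DMSO (x axis, log2(value + 1) scale, bars SE) of the 53 genes tested, grouped by family, with indisulam in orange and pladienolide B in blue; filled symbols have a limma adjusted p under 0.05. Blue symbols spread from -2.03 (DNAJC6) to 1.22 (DNAJC25), while orange ones, apart from HSPB6 at -1.66, lie between -0.43 and 0.76.

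Other genes of the chaperone network were counted in the same fit. For all the lists that follow, the shares over all features were 34.3% higher and 35.5% lower with pladienolide B. With indisulam they were 14.5% and 12.4%. With the same total per library the median over all features was -0.48 with pladienolide B, and the shares under that scaling are given above. With pladienolide B all 8 subunits of CCT, the cytosolic chaperonin that folds actin and tubulin, were higher (median log2 fold change 0.44), CCT7 by 0.64 ± 0.06 and CCT8 by 0.60 ± 0.05. With the same total per library 1 was higher and 2 lower (median -0.04). All 6 prefoldin subunits, which hand nascent actin and tubulin to CCT, were higher (median 0.50; 1 of 6 with the same total), PFDN5 by 0.83 and PFDN1 by 0.58. With indisulam 1 CCT subunit was lower, CCT6A by 0.34 on the log2 scale, and 3 prefoldin subunits were higher, among them PFDN4 by 0.24 and PFDN1 by 0.19, of which none was called with TMM scaling. At the same total 3 CCT subunits were lower (CCT4, CCT6A and CCT7) and PFDN1 was the 1 prefoldin subunit called higher.

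The endoplasmic reticulum chaperones HSPA5 and DNAJB9 had the largest rises of their list with pladienolide B. HSPA5, the HSP70 of that compartment, had 97706, 107600 and 97326 normalised reads with pladienolide B and 41027, 39530 and 38830 in DMSO (1.34 ± 0.05, limma adjusted p = 1.16e-10). All 8 genes tested from this list were higher, against 34.3% of all features, 7 of them also with the same total (median 0.91 and 0.44). With indisulam 2 of the 8 were higher, HSP90B1 by 0.26 and PDIA6 by 0.18. Set beside these, the luminal cochaperones DNAJB11 and DNAJC10 had rises of 0.39 and 0.61 with pladienolide B, neither of which was called with the same total (-0.08 and 0.14).

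Exchange factors and regulators of HSP70 were called in both directions. With pladienolide B 10 of 13 were higher and 3 lower, against 34.3% and 35.5% of all features (6 and 3 with the same total). GRPEL2, a mitochondrial exchange factor for HSPA9, had 887, 907 and 871 normalised reads with pladienolide B and 236, 271 and 298 in DMSO (1.73 ± 0.11, limma adjusted p = 1.35e-08). BAG2, an inhibitor of the ubiquitin ligase STUB1, had 2260, 2193 and 2517 with pladienolide B and 7962, 8358 and 8639 in DMSO (-1.84 ± 0.06, limma adjusted p = 4.96e-11). BAG4 was higher by 0.97 and HSPBAP1 lower by 0.84 on the log2 scale. With indisulam 4 were higher and 1 lower (2 and 1 with the same total): BAG3, itself a heat shock gene, had 5241, 4692 and 4876 with indisulam against 3851, 3841 and 3831 in DMSO (0.36 ± 0.07, limma adjusted p = 0.00275), HSPBAP1 was higher by 0.58, and STUB1 was lower by 0.29.

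Of 14 HSP90 cochaperones tested, 9 were higher and 4 lower with pladienolide B, against 34.3% and 35.5% of all features. With the same total 2 were higher and 10 lower, where the median over all features was -0.48. FKBP8 and CDC37, the kinase-specific cochaperone, were higher by 0.88 and 0.70, and both stayed called with the same total. TTC4 had 450, 504 and 561 normalised reads with pladienolide B and 2012, 2121 and 2121 in DMSO (-2.05 ± 0.09, limma adjusted p = 4.93e-10), and TOMM70, the import receptor of mitochondria that docks HSP90 and HSP70, was lower by 1.35 on the log2 scale. With indisulam PPID was higher by 0.40 and TTC4 by 0.29, and FKBP4 was lower by 0.20. With TMM scaling or the same total 1 was higher and 3 lower.

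Of the heat shock factor list, HSF2, a partner of HSF1, was higher with indisulam (0.37 ± 0.09, limma adjusted p = 0.00873) and lower with pladienolide B (-0.37 ± 0.09, limma adjusted p = 0.00237). Its values were 1094, 1172 and 1099 normalised reads with indisulam, 629, 711 and 670 with pladienolide B and 789, 884 and 931 in DMSO, with no overlap between any of the groups. HSBP1, which binds HSF trimers, was higher by 0.19 with indisulam and by 0.64 with pladienolide B. Of 5 mitochondrial chaperones and proteases outside the heat shock names, TRAP1, LONP1 and CLPP were higher and CLPX (-1.76 ± 0.10, limma adjusted p = 2.33e-09) and CLPB lower with pladienolide B, and with the same total none was higher and LONP1 was also lower. LONP1 was the 1 gene of these called with indisulam, lower by 0.35 on the log2 scale. CLPX overlaps SPG21 and LONP1 overlaps RPL36, features with higher means.

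Since both drugs act on splicing, the number of introns of each gene's GENCODE transcript was set beside its fold change. Across the 53 genes Spearman's rho between introns and log2 fold change was -0.43 with indisulam and -0.25 with pladienolide B, against -0.24 and -0.22 across 12278 protein-coding features tested. Genes share libraries and are not replicates, so these values are descriptions. With indisulam the 11 genes with 0 to 2 introns, among them HSPA1A, HSPA1B and DNAJB1, had a median of 0.39, with 4 higher and 1 lower, HSPB6. The 13 genes with 12 or more introns, HSPA9, HSPA4L, DNAJC10 and DNAJC21 among them, had a median of -0.05, with 3 higher and 4 lower. Over all protein-coding features the medians of the same classes were 0.12 and -0.07, with 322 of 1574 higher and 82 lower of those with 0 to 2 introns, and 410 of 4122 higher and 974 lower of those with 12 or more.

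With pladienolide B the 11 genes with 0 to 2 introns had a median of 0.27, the 13 with 3 to 6 introns 0.42, the 16 with 7 to 11 introns 0.19 and the 13 with 12 or more -0.06, against 0.24, 0.13, -0.11 and -0.31 over all protein-coding features. Of the genes with 0 to 2 introns 4 were higher and 2 lower, and of those with 12 or more 2 were higher and 5 lower. Over all protein-coding features these were 726 and 456 of 1574, and 919 and 2084 of 4122. The intronless HSPA6 rose and the intronless HSPA2 had -0.30 ± 0.24 (limma adjusted p = 0.272). DNAJC28, with 1 intron, was among the largest falls but rests on few reads. DNAJC10, with 23 introns, and HSP90AB1, with 11, rose, and with the same total per library DNAJC10 was not called.

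**Figure D5:**
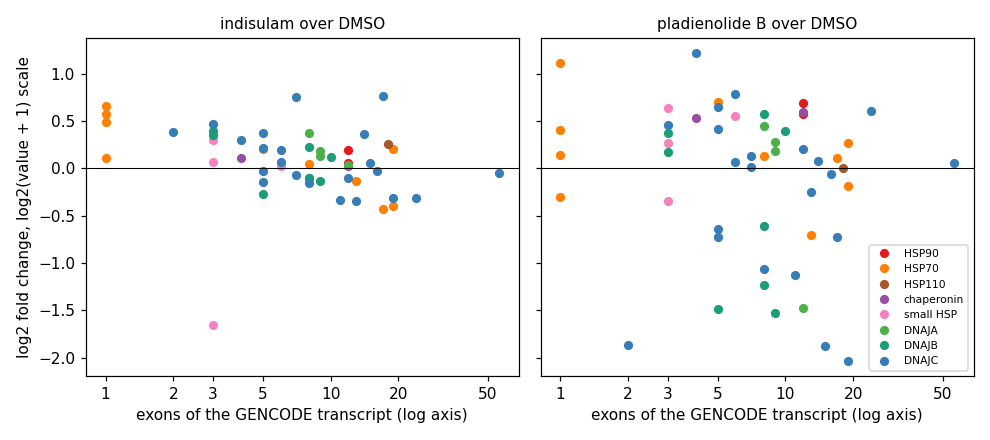
Log2 fold change over DMSO (y axis, log2(value + 1) scale) against the number of exons of the GENCODE transcript (x axis, log scale) for the 53 genes, coloured by family, with indisulam on the left and pladienolide B on the right. With indisulam the points slope downward (Spearman's rho -0.43), apart from HSPB6 at -1.66; with pladienolide B they spread widely at every exon number (rho -0.25).

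The genes were also split by whether a promoter window held a heat shock element pair. With pladienolide B, 10 of the 17 genes with a pair were higher and 1 lower (median 0.41), against 9 higher and 14 lower of the 32 without (median -0.03). Over all features 34.3% were higher and 35.5% lower. Scaled to the same total, 4 of the 17 were higher (HSPA6, DNAJC15, HSP90AB1 and HSPD1) and 4 lower (DNAJA1, HSPA4L, HSPA8 and HSPB8; median -0.07), against 2 higher and 25 lower of the 32 (median -0.50). The median over all features was then -0.48. In the deposited values all but HSPA8 of the 6 genes with the run of 3 repeats were higher. At the same total HSPA6, HSP90AB1 and HSPD1 were called higher, HSP90AA1 and DNAJB6 were not called, and HSPA8 was called lower (-0.34). Of the 6, 1 was called higher with indisulam and none lower. With indisulam 6 of the 17 were higher and 2 lower (median 0.20), against 6 and 3 of the 32 without (median 0.00), and 14.5% and 12.4% of all features; the lower 2 were HSPA4L and HSPB6. Genes with a pair were also among the highest in level, HSP90AB1, HSPA8, HSP90AA1, HSPD1 and HSPB1 being 5 of the 17. Most genes with a pair were HSP genes and most without were DNAJ genes, so the split largely follows that between families. With pladienolide B 10 HSP genes were higher and 2 lower, and 11 DNAJ genes were higher and 14 lower. HSPE1, whose window stops short of the pairs of HSPD1, was counted as without. These counts, and the part of family or level in them, were not tested.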

How the data were processed

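The deposited signal of a feature is its read count after division by a library size factor, made by the authors with DESeq2, per the labels and the table's name. STAR 2.7.5a, SAMtools, Picard and FastQC appear with DESeq2 and the build hg38 in the submitters' processing notes; neither the counter nor whether it used strand is given in the sources used here. The values came out as whole multiples of 1 read within 0.01, so whole reads were recovered; in pladienolide B replicate 1 that step was close to 1.

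Groups were compared with limma 3.58.1 under R 4.3.3 after taking log2(value + 1). A common model over the 9 libraries held a coefficient for each group, with eBayes and its trend option; p-values are two-sided and Benjamini-Hochberg adjusted over the 16846 features with a mean of at least 10, at a threshold of 0.05. This scale understates changes of low genes. The fit was also run on simulated counts in which few genes changed, equally up and down, with no shift in totals. That setting differs from the pladienolide B comparisons and does not bear on how they depend on scaling. No libraries of a group agreed within sampling noise (lowest chi-square per gene 8.63). Alternatives were TMM scaling, the same total per library, a pseudocount of 10, no filter, a mean of at least 50, the replicate number as a block, edgeR 4.0.16 and DESeq2 1.42.0 on recovered reads, and leaving out each library.

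The members, the 7 lists of other chaperone genes and the marker lists were chosen with earlier results of these data known. Every member may be named; values of each library are given for called members with an absolute log2 fold change of at least 1, for the highest member of each family and for others that the text turns on, the last chosen after their values were seen. From each list up to 2 called genes per direction and drug are named, the largest change first. All 64 members matched GENCODE release 29, and 56 matched the RefSeq promoters. Protein sequences were not used here.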

Additional observations from a re-analysis of the deposited data

How the results depend on the processing

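With the same total per library the counts of members higher and lower were 6 and 31 for pladienolide B against DMSO, and 6 and 31 for pladienolide B against indisulam. The median of all features moved by -0.47 and -0.41 in these comparisons. The cause was not tested. Under that scaling the sign turned for pladienolide B against DMSO in DNAJC1 (-0.27), DNAJC9 (-0.052), DNAJC14 (-0.35), HSPH1 (-0.47), DNAJA2 (-0.29), DNAJC7 (-0.39), DNAJB1 (-0.094), DNAJC27 (-0.45), DNAJC13 (-0.41), DNAJB11 (-0.080), DNAJC19 (-0.41), HSPA4 (-0.20), HSPA9 (-0.37), HSPA8 (-0.34), HSPA1B (-0.067) and DNAJA1 (-0.20). For pladienolide B against indisulam it turned in DNAJC1 (-0.12), DNAJC14 (-0.23), DNAJB1 (-0.39), DNAJB11 (-0.15), HSP90AA1 (-0.043), DNAJC21 (-0.32), HSPA4 (-0.35), HSPA8 (-0.33), DNAJB6 (-0.068) and DNAJA1 (-0.27). With 1 library left out, 7 to 16 members were higher and 3 to 6 lower with indisulam against DMSO. The lowest counts were 7 higher without indisulam replicate 1, 8 higher without DMSO replicate 2 or 3, and 3 lower without DMSO replicate 1, where fewer samples enter the fit. For indisulam against DMSO 9 of 18 calls held under every alternative run (DNAJB1, DNAJB6, DNAJC2, DNAJC7, DNAJC10, DNAJC21, DNAJC24, HSPA1B and HSPA9). For pladienolide B against DMSO 19 of 37 held under every alternative, and 32 under all but the same total; DNAJC28 also held wherever it was tested, which leaves out a mean of at least 50. edgeR on recovered reads called 10 higher and 6 lower with indisulam and 19 and 17 with pladienolide B, and DESeq2 called 14 and 6, and 22 and 16. Same-numbered libraries deviated together only weakly (correlations of 0.003 to 0.128), so the numbers were not taken as pairs. The replicate block gave 19 higher and 7 lower for indisulam, 23 and 17 for pladienolide B, and 20 and 21 between the drugs, and in 8 of 9 pairings of a library with another group's libraries it correlated best with its own number, a hint from the data only. With indisulam the block gained 8 calls, HSPH1, HSP90AA1, HSPA6, HSPA13, DNAJC5 and DNAJA1 as higher and DNAJC6 and DNAJC9 as lower. With pladienolide B against DMSO it gained 3, HSPA8 and HSPA9 as higher and HSPA4L as lower. Between the drugs it gained 4, HSPA4L as higher and HSPH1, HSPA1B and DNAJB4 as lower with pladienolide B. Depth limits the members under 10 normalised reads, and HSPB6 and DNAJC28 rest on few reads. Another 68 values of genes that were not called changed sign without a call.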

Other observations

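Members that were called with neither drug spanned several tasks of the HSP70 system. DNAJC19, a subunit of the mitochondrial import motor, averaged 880 ± 67.9 normalised reads with indisulam, 877 ± 55.3 with pladienolide B and 837 ± 17.9 in DMSO (SD, n = 3). DNAJC11, of the mitochondrial inner membrane organising system, averaged 6305 ± 381, 6188 ± 518 and 6427 ± 381 in the same order. The endosomal DNAJC13, with 55 introns the most of the 53 genes, averaged 671 ± 94.8, 726 ± 129 and 689 ± 39.0. DNAJC14 averaged 707 ± 52.5, 807 ± 44.3 and 739 ± 51.8, and overlaps ORMDL2, a feature with a higher mean (1534 against 751). The testis-enriched HSPA2 averaged 123 ± 11.2, 95.9 ± 35.4 and 114 ± 11.9. DNAJC22 had 108, 84.1 and 96.1 with indisulam, 108, 78.7 and 100 with pladienolide B and 91.3, 53.6 and 66.2 in DMSO, and DNAJA4 averaged 36.4 ± 17.8, 36.2 ± 9.51 and 25.9 ± 2.55. A p that misses the threshold does not show that these genes did not differ, and with the same total per library DNAJC11, DNAJC13, DNAJC14, DNAJC19 and HSPA2 were called lower with pladienolide B.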
